A study of Mus musculus with 2 samples.

Results

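The genes of the CD8 and CD4 coreceptors, Cd8a, Cd8b1 and Cd4, and the transcription factor gene Zbtb7b were compared between splenic CD5-positive gamma delta T cells of LAT3YF mice and of wildtype mice. The probes used were those that the platform annotation assigns to 1 of these genes alone. This gave 4 probes, 1 for each gene, out of 8014 probes on the array and 4 genes out of the 4331 that had a probe of a single gene. No probe listed with several genes included any of them. LAT is the adaptor that passes T cell receptor signals on to downstream enzymes, and in the LAT3YF allele distal tyrosines of LAT are replaced by phenylalanine. Per the labels, cells of both genotypes were enriched with magnetic beads against CD5, a surface glycoprotein of T cells, and sorted by flow cytometry. The labels used here give no age, strain, treatment or number of animals, and nothing that limits the LAT3YF mice as a model beyond the allele name.

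The series holds 2 two-colour arrays, each carrying LAT3YF and wildtype RNA in separate channels. They are marked in the labels as + and - polarity and are called the + array and the - array here. Their titles name the populations in opposite order. This was read as a reversal of the dyes, which are not themselves named. The labels name no separate animals or extracts for the arrays, so the pair counts as 1 replicate of the comparison. No test of the genotypes was made, and each SD below is over the 2 arrays and covers technical error only. Each deposited value is a log ratio of the channels, read as log10, and no intensities were analysed here, so levels within a population are unknown. The - array was multiplied by -1 to run the same way as the + array. The labels do not say which channel is the numerator, so a positive value marks 1 population and a negative value the other throughout, and which of them is LAT3YF stays unknown. With these ratios from bulk RNA, fewer cells that carry a transcript and less of the transcript per cell cannot be told apart.

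The coreceptors are surface proteins that bind the MHC molecule engaged by an alpha beta T cell receptor and bring the kinase Lck to the receptor. CD8 binds MHC class I, as a heterodimer of the alpha chain (Cd8a) and the beta chain (Cd8b1) on conventional cytotoxic T cells or as an alpha homodimer on many intraepithelial lymphocytes and on a subset of dendritic cells, whereas CD4 binds MHC class II and marks helper T cells. Zbtb7b encodes ThPOK, a zinc finger factor that directs thymocytes to the CD4 lineage and represses CD8 lineage genes, and Runx3 opposes it by silencing Cd4 and Zbtb7b in the CD8 lineage. Most gamma delta T cells of the mouse spleen carry neither coreceptor, and many gamma delta cells of the gut epithelium carry the CD8 alpha homodimer.

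The 2 CD8 chain genes lay far on the negative side on both arrays, Cd4 lay next to 0, and Zbtb7b lay on the positive side at about 2-fold. Genes were called where the mean log10 ratio reached 0.301 in size, a 2-fold difference, and the arrays shared a sign, which is a rule of size and not a test. By it 3 of the 4 genes were called, Cd8a and Cd8b1 negative and Zbtb7b positive. Over all 4331 genes the rule called 8.75 percent (379 genes), with 5.03 percent on the negative side and 3.72 percent on the positive side. The median mean log10 ratio of all genes was 0.0023, and the median size of the difference between the arrays after turning was 0.0819.

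**Figure D1:**
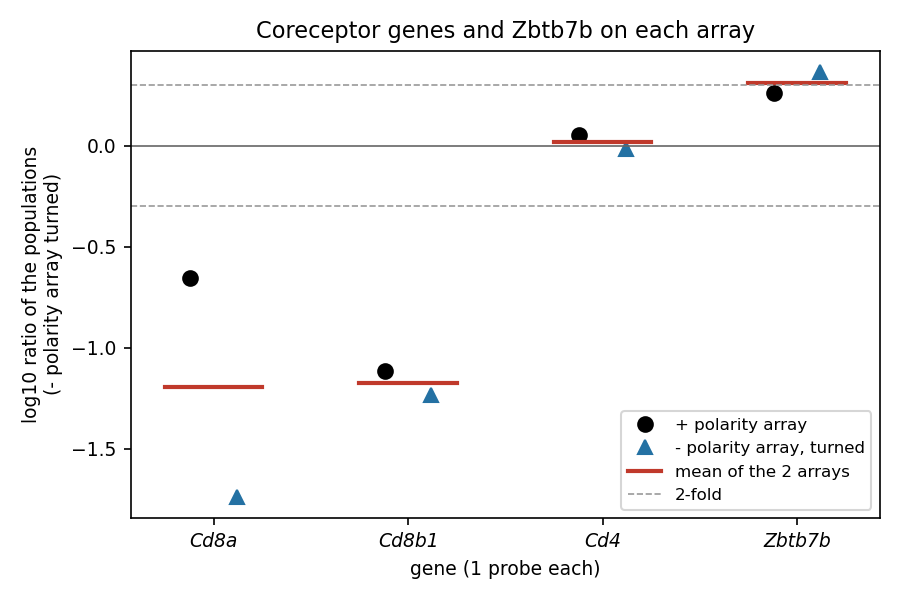
Log10 ratio of the populations for Cd8a, Cd8b1, Cd4 and Zbtb7b on the + array (circles) and the turned - array (triangles), with the mean of the 2 arrays (bars) and the 2-fold limits (dashed). Both CD8 chain genes lie below the lower limit on each array, Cd4 lies near 0, and Zbtb7b lies below the upper limit on the + array and above it on the - array.

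Cd8a, the alpha chain needed for both forms of CD8, had a log10 ratio of -0.654 on the + array and -1.74 on the - array after turning. These stand for 4.51-fold and 54.7-fold differences. The gene was therefore past 2-fold in the same direction on both arrays, but its size rested largely on the - array. Its mean was -1.20 ± 0.767 (SD over 2 arrays), a 15.7-fold difference, the second largest negative mean of the 4331 genes. On the - array its deposited value of 1.738 was the largest of all 8014 probes, where the values spanned -1.434 to 1.738. On the + array 49 genes had a lower ratio. Large negative ratios on the - array were often not shared by the + array. Of 202 genes at or below -0.5 on the - array, 92 were at least 2-fold negative on the + array, whereas of 74 genes at or below -0.5 on the + array, 72 were at least 2-fold negative on the - array. Cd8a was one of those that were negative past both limits. The 2 arrays differed by 1.08 for Cd8a, and 14 of the 4331 genes had a larger difference between arrays, against a 99th percentile of 0.930.

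Cd8b1, the beta chain that pairs with the alpha chain on conventional CD8 T cells, had a log10 ratio of -1.12 on the + array and -1.23 on the - array after turning. The arrays stand for 13.1-fold and 17.1-fold differences and lie close together. The mean was -1.18 ± 0.0820, a 15.0-fold difference, with a rank of 3 from the bottom of all genes. Its rank was also 3 on the + array and 4 on the - array. Only 4 genes, Cd8b1 among them, were at least 10-fold negative on each array, whereas Cd8a fell short of this on the + array.

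The order of the 2 chains was opposite on the 2 arrays. Cd8a minus Cd8b1 was 0.464 on the + array, where the beta chain had the larger negative ratio, and -0.504 on the - array, where the alpha chain did. The mean difference of -0.0200 ± 0.685 was far below its spread between the arrays, so the pair could not be ranked. Each gene was read by a single probe, so no further probe bears on the gap of Cd8a between the arrays. Cd8b1 minus Cd4 was -1.17 on the + array and -1.22 on the - array, and Cd8a minus Cd4 was -0.705 and -1.72, so both chains lay below Cd4 on each array.

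Cd4 had a log10 ratio of 0.0513 on the + array and -0.0158 on the - array after turning, with opposite signs. Its mean of 0.0177 ± 0.0474 (1.04-fold) was smaller than its SD, and 13.8 percent of genes had a mean closer to 0. This does not show that the level of Cd4 was equal in both populations, since a transcript at background in both channels would also give a ratio near 0 and no intensity was analysed here. Zbtb7b had a log10 ratio of 0.258 on the + array (1.81-fold) and 0.364 on the - array after turning (2.31-fold). Both values are positive and differ little, but the + array alone was under 2-fold. The mean was 0.311 ± 0.0751, a 2.05-fold difference just past the limit, and its rank from the top was 146 of 4331 genes. Cd4 minus Zbtb7b was -0.207 on the + array and -0.380 on the - array.

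**Figure D2:**
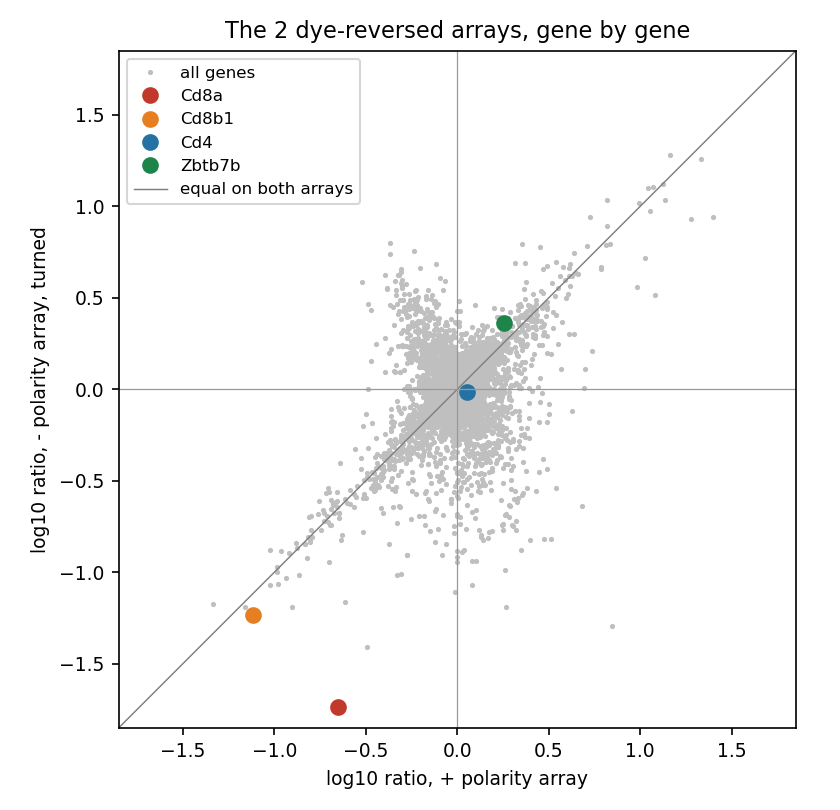
Log10 ratio of each of 4331 genes on the + array (x axis) against the turned - array (y axis), with the 4 genes in colour and a line where both arrays are equal. Cd8b1 and Zbtb7b lie near the line, Cd8a lies well below it, and Cd4 lies in the dense centre.

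The genes with the most similar pair of values were found by distance in the plane of the 2 turned log10 ratios, which compares 2 technical arrays and nothing more. Nearest to Cd8b1 were Slc40a1, the iron exporter ferroportin, at a distance of 0.0616, then Adgre1, a macrophage surface receptor, at 0.188 and the adhesion molecule Vcam1 at 0.218, followed by Clec1b and G0s2. Apart from Slc40a1 no gene lay within 0.1 of it. No gene lay within 0.1 of Cd8a. The closest was Il15, the cytokine that maintains memory CD8 T cells, at a distance of 0.367, with -0.491 on the + array and -1.41 on the - array. It was followed by Fcgr1, an Fc receptor, at 0.577, Clec1b at 0.604 and Cd8b1 itself at 0.685. Zbtb7b had 51 genes within 0.1, the nearest being the actin crosslinker Actn4 (0.0070), Ahnak (0.0078), the cytokine gene Tnfsf11 (0.0109), Il10 (0.0205) and Cxcl13 (0.0212). Cd4 had 1074 genes within 0.1, so that its nearest genes, Rsrp1, Cmc4, Defb2, Med14 and Olfr65, are arbitrary picks from the centre of the distribution.

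The promoters of Cd8a and Zbtb7b, as given by RefSeq (GRCm38.p6, 250 bases before to 50 after the start), are shown as the start regions of the CD8 chain with the largest single-array ratio and of the factor that represses CD8 genes. Promoters of 2 of the 4 genes were matched by symbol, with 2 starts for Zbtb7b. Cd8a lies at chr6:71373177-71373476 on the + strand, and the Zbtb7b starts lie at chr3:89393329-89393628 and chr3:89387622-89387921 on the - strand. Capitals mark matches on either strand to short motifs of the lineage factors listed after the sequences, which are written 5′ to 3′.
Cd8a promoter: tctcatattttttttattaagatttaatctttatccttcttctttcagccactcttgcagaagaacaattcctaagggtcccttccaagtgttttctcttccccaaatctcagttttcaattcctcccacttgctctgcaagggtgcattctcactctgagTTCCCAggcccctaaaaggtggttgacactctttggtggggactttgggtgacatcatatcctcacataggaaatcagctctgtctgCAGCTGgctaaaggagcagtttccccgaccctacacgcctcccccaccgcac
Zbtb7b promoter, first start: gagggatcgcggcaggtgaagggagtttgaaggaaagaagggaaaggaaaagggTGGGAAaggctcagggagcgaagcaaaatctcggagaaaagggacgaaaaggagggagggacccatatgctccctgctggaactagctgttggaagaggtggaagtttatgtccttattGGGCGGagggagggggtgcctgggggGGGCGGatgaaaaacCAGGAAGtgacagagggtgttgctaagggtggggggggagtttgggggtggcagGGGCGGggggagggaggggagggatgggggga
Zbtb7b promoter, second start: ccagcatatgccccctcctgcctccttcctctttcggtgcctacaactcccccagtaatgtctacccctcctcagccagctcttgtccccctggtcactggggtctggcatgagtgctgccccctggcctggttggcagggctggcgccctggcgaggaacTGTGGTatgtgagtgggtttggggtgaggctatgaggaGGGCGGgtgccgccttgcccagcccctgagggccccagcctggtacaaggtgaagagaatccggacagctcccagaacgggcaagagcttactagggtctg
A total of 8 motifs were searched on both strands, and no matches overlapped. The letters were TGTGGT for Runx factors and CAGCTG, which is its own reverse complement, for E proteins. They were CAGGAAG for Ets factors and AGATAA for Gata factors, then TAACNG for Myb and TGGGAA for Ikaros. Those of Sp1 were GGGCGG and those of Egr factors were GCGTGGG. The Cd8a window held an E protein match that begins 2 bases before the start and an Ikaros match that begins 89 bases before it, on the opposite strand. Of 32851 promoter windows in the table, 16.3 percent held the E protein letters and 25.6 percent the Ikaros letters. The first Zbtb7b window held an Ets match (13.3 percent of windows), an Ikaros match and 3 Sp1 matches (35.7 percent). The second held the Runx letters 89 bases before the start (16.8 percent) and 1 Sp1 match. The Gata letters (11.2 percent of windows), the Myb letters (23.3 percent) and the Egr letters (5.04 percent) were not found in these windows. Such matches are short and frequent, and they describe the letters of the window only. GC content was 46.7 percent for Cd8a and 59.7 and 63.3 percent for the Zbtb7b starts, against a median of 52.7 percent.

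The measured chromosomal neighbours of the CD8 chain genes were not called, while 3 near Cd4 and 1 near Zbtb7b were. Gene order was taken from the RefSeq gene table, and measured neighbours need not be adjacent genes. Vamp5 lies 17 coding genes from Cd8a, Gapdh 13 and Tapbpl 17 from Cd4, and Chrnb2 10 from Zbtb7b. Eif2ak3 also lies several coding genes from Cd8b1. Cd8b1 and Cd8a are adjacent coding genes on chromosome 6, and they were the pair with the large negative ratios. Beyond Cd8a, the ubiquitin ligase subunit gene Rmnd5a was at -0.0839 ± 0.0197 and Rnf103 at -0.195 ± 0.0057, and the next measured gene, the vesicle protein gene Vamp5, was at 0.0397 ± 0.0367. On the other side of Cd8b1, the nearest measured gene Eif2ak3, the kinase PERK, was at 0.0983 ± 0.0203, the immunoglobulin kappa constant gene Igkc at -0.120 ± 0.0591 and the next measured gene, a kappa variable segment, at -0.162 ± 0.0620. Cd4 lies next to Lag3, an inhibitory receptor that resembles CD4 in structure and also binds MHC class II. Lag3 was called negative, with -0.297 on the + array and -0.340 on the - array (mean -0.318 ± 0.0304, 2.08-fold), while Cd4 was not called. Beyond Lag3, the glycolytic enzyme gene Gapdh (0.235 ± 0.0298) and Tapbpl (-0.0412 ± 0.0120) were not called. On the other side of Cd4, the cell cycle gene Cdca3 (0.314 ± 0.112, with 0.234 on the + array) and the glycolytic enzyme gene Tpi1 (0.427 ± 0.0388) were called positive, and Usp5 (0.0746 ± 0.0184) was not. Near Zbtb7b, the cell cycle gene Cks1b was called positive at 0.376 ± 0.0480, and the ephrin genes Efna1 (0.0519 ± 0.185) and Efna4 (-0.0372 ± 0.0531) and the protease gene Adam15 (0.0625 ± 0.0652) were not, nor were Pmvk (0.100 ± 0.0300), an enzyme gene of cholesterol synthesis, and the nicotinic receptor gene Chrnb2 (-0.0194 ± 0.0722). Of the 18 neighbouring genes examined, 4 were called, beside 8.75 percent of all genes.

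**Figure D3:**
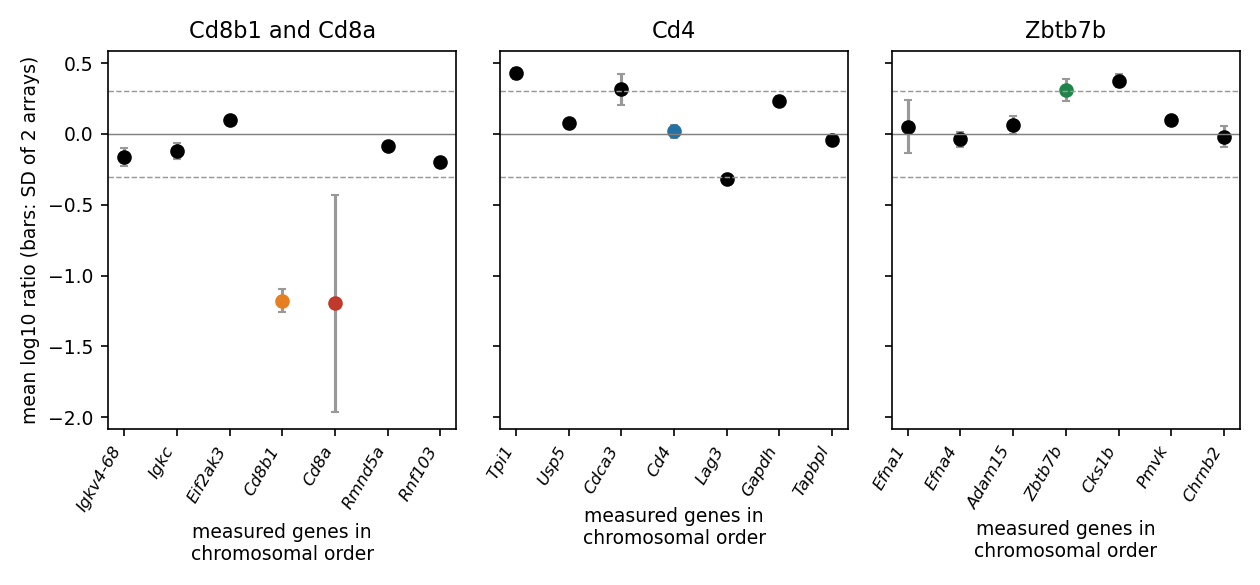
Mean log10 ratio of the measured genes on either side of Cd8b1 and Cd8a, Cd4 and Zbtb7b, in chromosomal order and not to scale, with bars for the SD of the 2 arrays, the 4 genes in colour and the 2-fold limits dashed. The CD8 chain genes stand near -1.2 while their measured neighbours, some of them several coding genes away, lie between -0.195 and 0.0983.

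Among factors that choose between the CD4 and CD8 lineages, 22 of 35 listed were measured, of which 3 were called positive and 2 negative, with their median at 0.0353. Beside Zbtb7b, the positive genes were Gata3, which acts upstream of Zbtb7b in CD4 lineage choice, with 0.589 on the + array and 0.597 on the - array (mean 0.593 ± 0.0057, 3.92-fold), and Prdm1, which encodes Blimp-1, a factor of terminal effector cells (0.404 ± 0.0878, 2.54-fold). The negative genes were Id3, an inhibitor of E proteins (-0.390 ± 0.0373, 2.45-fold), and Myb, which has a role upstream of Gata3 in thymocytes. Myb had -0.308 on the + array and -1.01 on the - array, a spread similar in kind to that of Cd8a, and its mean was -0.658 ± 0.496. Runx3, the factor of the CD8 lineage that silences Cd4, was not called, with 0.0077 on the + array and 0.104 on the - array. Runx1, which silences Cd4 in early thymocytes, had 0.347 on the + array and 0.241 on the - array, a mean of 0.294 ± 0.0752 (1.97-fold) that fell short of 2-fold. Patz1, which encodes the Cd8 regulator MAZR, was at -0.0222 ± 0.0314, and Zbtb7a, the closest relative of Zbtb7b, at 0.0442 ± 0.0358. Of 11 other measured genes with a Zbtb symbol, 2 were called, beside 8.75 percent of all genes. They were Zbtb38, positive (0.416 ± 0.0209), and Zbtb20, negative (-0.311 ± 0.227, with -0.151 on the + array).

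None of the 4 measured chromatin regulators of the coreceptor loci was called, of 18 listed. The largest mean was that of the Polycomb methyltransferase gene Ezh2 at 0.293, just under 2-fold, followed by the remodelling ATPase gene Smarca4 at 0.0850, with opposite signs on the arrays, and Hdac2 at -0.0323. Of 18 measured genes of signalling next to the coreceptors, of 26 listed, 2 were called positive and 2 negative, their median being 0.103. These were Cd5, the gene of the sorting marker (0.614 ± 0.0077), its relative Cd6 (0.402 ± 0.0787), and the Tec family kinase genes Txk (-0.568 ± 0.0056) and Tec (-0.501 ± 0.0691). Lck, the kinase that the coreceptors carry, was not analysed here. Its relative Fyn had a mean of 0.156 and the kinase gene Zap70 one of 0.135, below the limit.

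The lists of MHC class I and class II genes had medians of opposite sign. They hold genes of the ligands of CD8 and CD4 together with processing and loading genes such as Tap1, Psmb8, H2-DMb1 and Cd74. The medians are thus not those of the ligands alone. Of 19 measured genes of MHC class I presentation, the ligands of CD8 among them, 18 had a mean above 0, 0 were called positive and 1 was called negative. That gene was Cd1d1, which presents lipids (-0.432 ± 0.100), and the median was 0.0922. The list of MHC class II presentation genes and CD4 ligands, which also holds Lag3 as another receptor for MHC class II, had 13 measured genes, each with a mean below 0, and 6 were called negative. They were H2-DMb1 (-0.385 ± 0.0098), H2-Eb1 (-0.331 ± 0.0127), H2-Ob (-0.372 ± 0.279), H2-Aa (-0.319 ± 0.0868), Lag3 and the invariant chain gene Cd74 (-0.303 ± 0.0388), and the list median was -0.289. The + array alone called 3 genes of this list, H2-DMb1 (-0.378), H2-Eb1 (-0.322) and Ctss (-0.310), the last of which is not among these 6. On it Lag3 (-0.297), Cd74 (-0.276), H2-Aa (-0.258) and H2-Ob (-0.174) were under 2-fold. Markers of cells that present antigen through MHC class II also had negative medians, at -0.982 for macrophages and monocytes, -0.349 for B cells and -0.243 for CD8 alpha dendritic cells, and their part in the ratios of the class II genes was not tested. Over all genes 2217 means were above 0 and 2114 below.

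Genes known from CD8 T cells did not all follow Cd8a and Cd8b1. Of 22 measured genes of CD8 effector and memory cells, of 33 listed, the called genes were 6 negative and 4 positive, and the list median was -0.0492. On the negative side lay Klrd1, the CD94 chain (-0.979 ± 0.0120, 9.52-fold), and Ly6c1, a surface antigen of memory CD8 T cells (-0.908 ± 0.0161, 8.08-fold), along with Klrc1 (-0.624 ± 0.118) and the homing receptor Ccr7 (-0.478 ± 0.227). Also called were Ccr9, with -0.106 on the + array and -0.761 on the - array, and Klrk1, with -0.248 on the + array and -0.553 on the - array, so that both were under 2-fold on the + array. On the positive side lay Klrg1, a receptor of terminal effectors (1.09 ± 0.0255, 12.2-fold), and Gzmb, the protease granzyme B (0.854 ± 0.0527, 7.14-fold), along with Ccl5 and Fasl. Of 17 measured genes of CD4 helper cells, of 18 listed, 6 were called, each of them positive, and the list median was 0.207, with 15 means above 0. These 6 were Il13 (1.01 ± 0.0545, 10.3-fold), Tnfrsf4, which encodes the costimulatory receptor OX40 (0.650 ± 0.0456), Tnfrsf18, Cxcr5, Icos and Tnfsf11, the last of them under 2-fold on the + array (0.247). The cytokine receptor gene Il2ra had a mean of -0.127 and was not called.

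**Figure D4:**
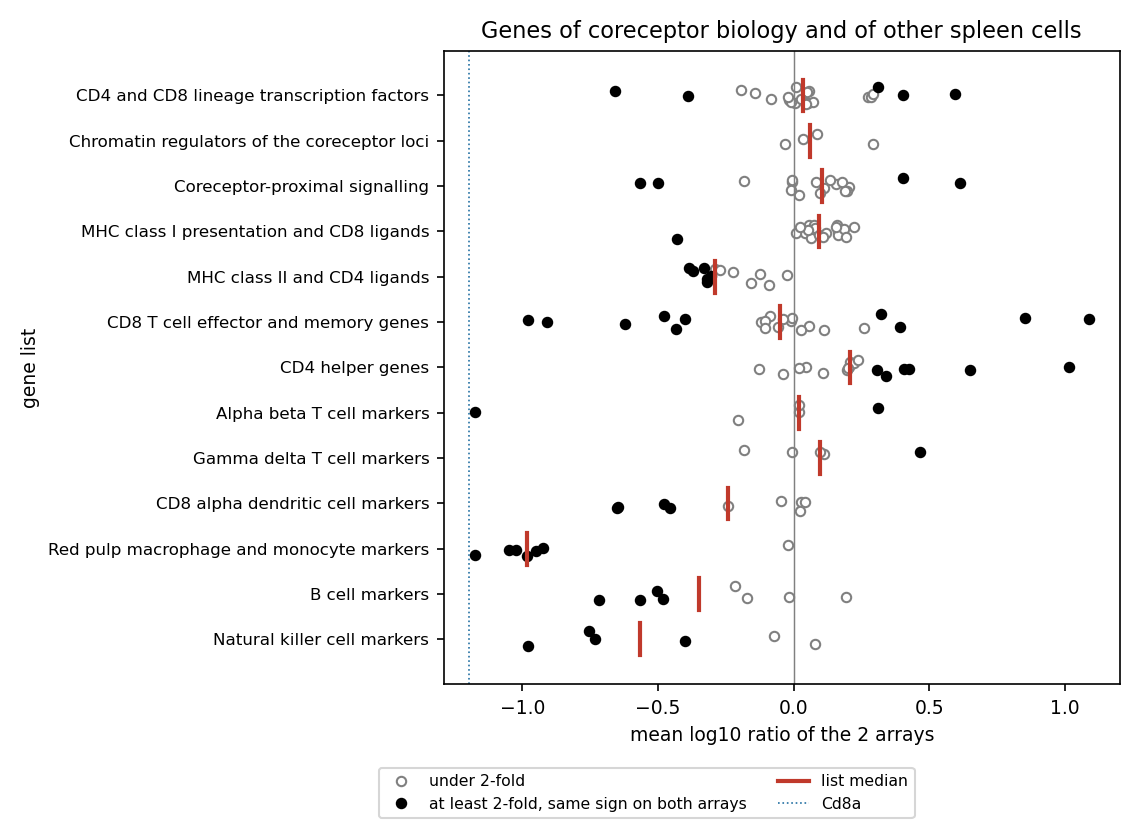
Mean log10 ratio of the 2 arrays for each measured gene (points) of 13 gene lists, filled where the gene was called, with each list's median (red bar) and the value of Cd8a (dotted line). The helper list lies mostly right of 0. The macrophage and monocyte list has the median nearest to Cd8a, and the nearest single gene is Cd8b1.

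Many but not all markers of other spleen cells lay on the side of Cd8a and Cd8b1 as well. Of 7 measured markers of red pulp macrophages and monocytes, of 12 listed, 6 were called negative, and the median was -0.982. They were Slc40a1, Adgre1 and Vcam1, which are among the genes nearest to Cd8b1, with Mrc1 (-0.982 ± 0.0660), Cd14 (-0.950 ± 0.103) and Spic (-0.922 ± 0.0583). Itgam (-0.0221) was not called. Of 9 measured markers of CD8 alpha dendritic cells, which carry Cd8a without Cd8b1, 4 were called negative, namely Cd24a (-0.651 ± 0.0400), Itgax (-0.649 ± 0.0097), Cd36 (-0.476 ± 0.234) and Irf8 (-0.457 ± 0.0044). The other 5, Flt3 (-0.243), Ly75 (-0.0476), Zbtb46 (0.0225), Itgae (0.0278) and Xcr1 (0.0402), were not called. The median of this list was -0.0597 on the + array and -0.427 on the - array, so that its value of -0.243 in the mean rests mainly on the - array. Of 8 measured B cell markers 4 were called negative (median -0.349), namely Ighm (-0.719 ± 0.0310), Cd72 (-0.568 ± 0.0236), Blnk (-0.505 ± 0.0692) and Cd79b (-0.482 ± 0.0650). Cd79a (-0.217), Ms4a1 (-0.174), Pax5 (-0.0184) and Cd22, which was positive on both arrays (mean 0.193), were not called. Of 6 measured natural killer cell markers 4 were called negative (median -0.566), namely Klrd1, Klrb1c (-0.755 ± 0.0812), Klra1 (-0.731 ± 0.133) and Klrk1. Ncr1 (-0.0723) and Itga2 (0.0766) were not called. The part of these cell types in the ratios of Cd8a and Cd8b1 was not tested, and with ratios alone no summed level per population can be given.

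The labelled cell type could not be checked from these ratios. Of 12 genes listed for gamma delta T cells 5 were measured. The CD3 chain genes, which are not particular to gamma delta cells, gave 4 values between -0.185 and 0.110 and were not called. Sox13 (0.465 ± 0.0342) was called positive. The receptor constant genes of gamma delta cells were not analysed here. Of 8 listed markers of alpha beta T cells, 5 were measured, but 3 of these are Cd8b1, Cd4 and Zbtb7b themselves and give no separate check. The remaining Cd28 (0.0200) and Cd27 (-0.207) were not called, and neither is particular to alpha beta cells. Trac, Trbc1 and Trbc2, the receptor constant genes of alpha beta cells, were not analysed here, and the origin of the CD8 beta chain transcript among the sorted cells was not tested.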

How the data were processed

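RNA of CD5-positive gamma delta T cells was compared on a pair of two-colour arrays of opposite polarity, read as dye-reversed. The authors deposited a log ratio of the channels for each probe on each array. No source gives the log base, and the deposited values were read as log10. The scanner, background correction and normalization, like the numerator, are not stated in the labels or the table. The deposited medians were -0.00284 (+ polarity) and 0.00101 (- polarity).

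The platform annotation lists 1 gene for 4654 of 8014 probes, several for 73 and none for 3287. A gene's value was the mean over its probes. The - array was turned, and the arrays were averaged (pandas, Python 3.11.15). Limma 3.58.1 in R 4.3.3 served as an alternative and was tested on simulated data, as was the size rule. The simulated noise was alike for every gene and set from the median difference between the arrays (0.0819). The 99th percentile of the real differences was 0.930, so the simulation does not show how often unchanged genes are called in these data. No filter on dim probes, background correction or other normalization could be tried without intensities. Precision is limited by the number of arrays. Gene identifiers of 4640 single-gene probes were in the RefSeq gene table (GRCm38.p6), including those of all 4 genes, and no coordinates are given for probes. The genes described, the 13 gene lists and the motifs were chosen with earlier results of these data known. Named genes were the 4 genes, the 5 nearest to each by distance, called list genes (6 at most per list, or the 3 largest where none was called) and the 3 nearest measured neighbours on each side. Other names were chosen after their values were seen. They are list members beyond these limits or not called, and the Zbtb relatives.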

Additional observations from a re-analysis of the deposited data

How the results depend on the processing

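Cd8a and Cd8b1 kept their sign and stayed past 2-fold under every alternative run that bears on them, including a threshold of 3-fold. Cd8a ranged from -1.74 to -0.654 and Cd8b1 from -1.23 to -1.12 when either array was left out. Zbtb7b ranged from 0.258 to 0.364 when either array was left out. It was not called on the + array alone, at a threshold of 3-fold or with another log base. The count of called genes among the 4 was therefore 2 or 3. Cd4 ranged from -0.0158 to 0.0513 and was never called. With values read as log2 the log10 ratios were -0.360 for Cd8a (2.29-fold), -0.354 for Cd8b1 (2.26-fold) and 0.0936 for Zbtb7b (1.24-fold). Read as natural logs, Cd8b1 was at -0.511 (3.24-fold) and Zbtb7b at 0.135 (1.36-fold). Of all genes, 379 were called, 774 at 1.5-fold, 144 at 3-fold, 17 as log2, 62 as natural logs, and 452 to 742 on single arrays (+ and - polarity). Of 145 measured genes of the lists, 50 were called, 76 at 1.5-fold, 28 at 3-fold, 6 as log2, 15 as natural logs, and 47 to 57 on single arrays. The lists were chosen with earlier results of these data known, so their share cannot be set against the 8.75 percent of all genes. Thresholds and log bases move the limit itself, and for the single arrays the cause was not tested. Centring the arrays, scaling them, taking the median over probes and dropping the requirement of the same sign moved none of these counts by over 1.5 times. With limma over the 2 arrays, which measures only their spread, 0 genes had an adjusted p under 0.05 and 791 an unadjusted p under 0.05. No paired analysis was possible because both arrays carry the same pair of populations and count as 1 replicate.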
